A study of Homo sapiens and Mus musculus with 13 samples.

Results

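The genes described are 10 components of the G1 cyclin-dependent kinase (CDK) switch among the 37991 genes of the mouse tables: the 4 INK4 inhibitors Cdkn2a, Cdkn2b, Cdkn2c and Cdkn2d, the CIP/KIP inhibitor Cdkn1b, the D cyclins Ccnd1, Ccnd2 and Ccnd3, and the kinases Cdk4 and Cdk6. The list was drawn up because Cdkn2a and Ccnd1 were much higher in NPM1c knock-in clones than in parental cells, so the members were chosen by the normalized counts of this very contrast. Their values in it are a description. No p-value is given for them, their calls in the fit over all genes are stated only beside the background, and intervals on their reads cover counting error only. RNA sequencing covered a mouse haematopoietic progenitor line immortalized by HOXB8. Both groups carry HOXB8 and were grown in medium with stem cell factor, the ligand of KIT, and beta-estradiol. The knock-in group consists of 3 single-cell clones, labelled 12, 18 and 4, in which CRISPR/Cas9 placed GFP-tagged NPM1c, the leukaemic cytoplasmic form of nucleophosmin. The parental group has 2 libraries of the line labelled wild-type. The labels list no single-cell clone without the knock-in, so effects of cloning and of NPM1c cannot be told apart, and it is not stated whether separate cultures gave the parental libraries. Tests then measure only the spread between these samples, which may be technical.

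In G1, D cyclins bind CDK4 or CDK6, and the complexes phosphorylate the RB proteins, which frees E2F factors to switch on genes for DNA synthesis. INK4 proteins bind CDK4 and CDK6 and keep the D cyclins off. CIP/KIP proteins such as p27, the product of Cdkn1b, mainly block CDK2 complexes and help to assemble those of CDK4. D cyclins are induced by growth factors, and blood progenitors rely on all 3 of them together with CDK6. Cdkn2a has a second product, ARF, which shields p53 from MDM2 and which nucleophosmin holds in the nucleolus. The locus is silenced by Polycomb proteins in proliferating progenitors.

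Values are normalized read counts, meaning reads divided by the authors' size factor for each library. They are not divided by gene length, so levels are compared between libraries and not between genes. The libraries held 7358340 to 12235174 reads, except parental replicate 2 with 99557475, and a single read is worth 1.23 to 2.05 in the clones, 1.55 in parental replicate 1 and 0.153 in parental replicate 2. The clones' tables name their columns after other clones of the group than the titles do, so a clone number here is that of the title. The targeted gene Npm1 had 14530 ± 535 normalized reads in the clones (SD, n = 3) against 25705 ± 13.7 in parental cells (SD, n = 2), which does not separate mutant from normal transcripts. Of 8 progenitor markers, 7 were in the tables under the names searched and none of these was without reads, with Kit at 7060 ± 1374 and 5499 ± 335. Markers of other types also differed. Summed mast cell and basophil markers spanned 4912 to 7569 in the clones and 1258 to 3490 in the parental libraries, with Tpsb2, Cma1, Mcpt4 and Fcer1a at 0 in the latter. Megakaryocyte markers spanned 2016 to 3087 and 323 to 392, and neutrophil markers 11300 to 25657 and 46478 to 51460, with S100a8 and S100a9 at 0 in the clones. Only 5 of 9 mast cell and basophil, 3 of 5 megakaryocyte and 3 of 8 neutrophil markers had enough reads to be tested. Camp, a neutrophil marker, had none in any library. A single read is worth more in the clones than in parental replicate 2, so a 0 in the clones does not show absence. In such bulk samples, fewer cells of a type and less RNA per cell cannot be told apart. The part of cell type makeup in the results that follow was not tested.

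Cdkn2a, Cdkn2b, Ccnd1 and Ccnd2 were higher in every clone than in either parental library. Cdkn2c was lower in every clone, with a spread between clones wider than that of any other member. Cdkn2d, Ccnd3 and Cdk6 overlapped between the groups, and Cdkn1b and Cdk4 were lower in every clone by small margins.

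**Figure D1:**
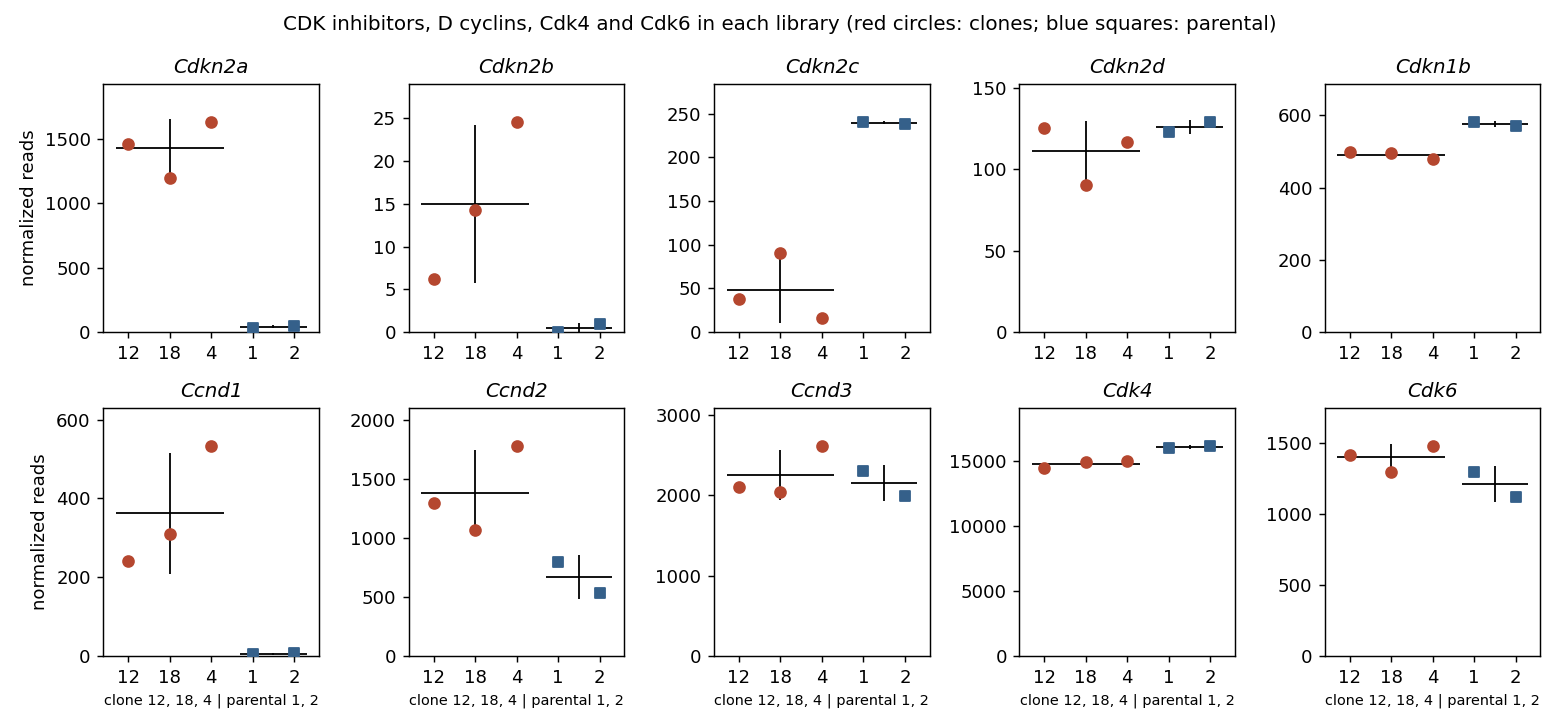
Normalized reads (vertical axes, each from 0) of the 10 genes in the 3 knock-in clones (red circles) and the 2 parental libraries (blue squares); the horizontal line is the group mean and the vertical line 1 SD, stopped at 0. Cdkn2a and Ccnd1 are near the axis in the parental libraries, while Cdkn2c is low in the clones and Cdk4 is nearly level.

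Cdkn2a encodes p16INK4a, which blocks CDK4 and CDK6, and ARF from another reading frame. The gene was at 1460, 1195 and 1631 in clones 12, 18 and 4, and at 34.2 and 49.0 in parental replicates 1 and 2. All clones were far above both parental libraries: the lowest clone was 24.4 times the higher parental value, while the clones differed from each other by 1.36 times at most. The group means were 1429 ± 220 (SD, n = 3) and 41.6 ± 10.5 (SD, n = 2), a difference of 5.08 on the log2(value + 1) scale (SE 0.209), or 33.8-fold. The table has 1 row for the gene, so transcripts of p16INK4a and of ARF are not separated. Parental Cdkn2a rests on 22 reads in replicate 1 and 321 in replicate 2, so it was low but detected in both.

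Cdkn2b, the neighbouring gene, encodes p15INK4b, the inhibitor induced by TGF-beta. It had 5, 9 and 12 reads in clones 12, 18 and 4, none in parental replicate 1 and 6 in parental replicate 2. These correspond to normalized values of 6.16, 14.3, 24.6, 0 and 0.916. The 95% Poisson interval of the value, for counting error only, reached 5.73 in parental replicate 1. It overlapped that of clone 12, the lowest clone, which was 2.00 to 14.4. The pooled rate of reads was 16.1 times higher in the clones (95% exact interval 6.50 to 48.0, counting error only). With a mean of 9.19 over the 5 libraries, Cdkn2b fell just short of the minimum of 10 for testing, and it was the only member left out of the fit.

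Cdkn2c encodes p18INK4c, an inhibitor known to restrain the cycling of blood stem cells. Its parental values were 241 and 239, and its clone values 38.2, 90.4 and 16.4 in clones 12, 18 and 4. The direction was thus opposite to that of Cdkn2a and Cdkn2b, with the highest clone 2.64 times below the lower parental library. The log2 difference was -2.60 (SE 0.676), and the clones themselves differed by 5.51 times. The clone values rest on 31, 57 and 8 reads, with 95% Poisson intervals, for counting error only, of 25.9 to 54.2, 68.4 to 117 and 7.09 to 32.3.

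Cdkn2d encodes p19INK4d, an inhibitor unrelated to the ARF protein that shares its size name in mice. Its values of 126, 90.4 and 117 in clones 12, 18 and 4 overlapped the parental 123 and 129. The log2 difference of -0.19 (SE 0.205) was smaller than its error.

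Cdkn1b was the inhibitor with the least spread. It was at 499, 495 and 480 in clones 12, 18 and 4 and at 583 and 571 in the parental libraries. Every clone was below both parental libraries, the closest pair by 1.14 times, and the log2 difference was -0.23 (SE 0.124). The coefficient of variation across clones was 1.99%, where the median tested gene had 11.4%.

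Reads of the INK4 genes were therefore distributed differently over the 4 genes in the 2 groups. Cdkn2a took 89.6%, 86.0% and 91.2% of them in clones 12, 18 and 4, and 8.59% and 11.7% in the parental libraries. The exact (Clopper-Pearson) 95% interval was 83.5% to 88.2% for clone 18, the lowest clone, and 5.46% to 12.7% for parental replicate 1. Cdkn2c took 60.5% and 57.1% in the parental libraries but 2.34%, 6.50% and 0.917% in clones 12, 18 and 4. Gene length enters each share, so a share is compared only between libraries. Summed over all 5 inhibitors, normalized reads were 2129, 1885 and 2269 in clones 12, 18 and 4 and 980 and 988 in the parental libraries.

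Ccnd1 encodes cyclin D1, the D cyclin most often driven by growth factor, RAS and beta-catenin signals in solid tissues. It was at 241, 311 and 533 in clones 12, 18 and 4 and at 4.66 and 7.94 in the parental libraries. The lowest clone was 30.4 times the higher parental value. Group means were 362 ± 153 (SD, n = 3) and 6.30 ± 2.32 (SD, n = 2), with a log2 difference of 5.59 (SE 0.373). Parental replicate 1 holds only 3 reads (95% Poisson interval of the value 0.961 to 13.6), whereas the 52 reads of the deep replicate 2 bound its value between 5.93 and 10.4. Cyclin D1 transcripts were thus scarce but present in the parental line. Clone 4 had 2.21 times the level of clone 12.

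Ccnd2 encodes cyclin D2, a D cyclin of blood cells that lies downstream of cytokine receptors and MYC. It was at 1296, 1073 and 1783 in clones 12, 18 and 4 and at 802 and 538 in the parental libraries. The margin between groups was narrow, with the lowest clone 1.34 times the higher parental library, whereas the parental libraries differed by 1.49 times. The log2 difference was 1.04 (SE 0.256), or 2.06-fold.

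Ccnd3 encodes cyclin D3, which serves lymphoid, erythroid and granulocyte precursors. Its values of 2106, 2040 and 2616 in clones 12, 18 and 4 overlapped the parental 2307 and 1995. The log2 difference of 0.06 (SE 0.134) changed sign without clone 4 (-0.05) and without parental replicate 2 (-0.04). A pseudogene of the gene, Ccnd3-ps, is listed separately at no more than 12.4 in any library, and how reads were shared between the 2 is not given in the sources used here.

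The balance of the D cyclins differed accordingly. Ccnd1 held 6.62%, 9.07% and 10.8% of D cyclin reads in clones 12, 18 and 4 and 0.150% and 0.312% in the parental libraries, where the exact 95% interval was 5.75% to 7.58% for clone 12 and 0.0309% to 0.437% for parental replicate 1. Ccnd3 held 57.8% and 59.6% in clones 12 and 18 and 1275 of 2404 reads in clone 4, all below the 74.1% and 78.5% of the parental libraries. In all 5 libraries Ccnd3 had more reads than Ccnd2, and Ccnd2 more than Ccnd1, an order not corrected for gene length. The sum of the 3 cyclins was 3644, 3424 and 4932 in clones 12, 18 and 4, above the parental 3114 and 2541.

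**Figure D2:**
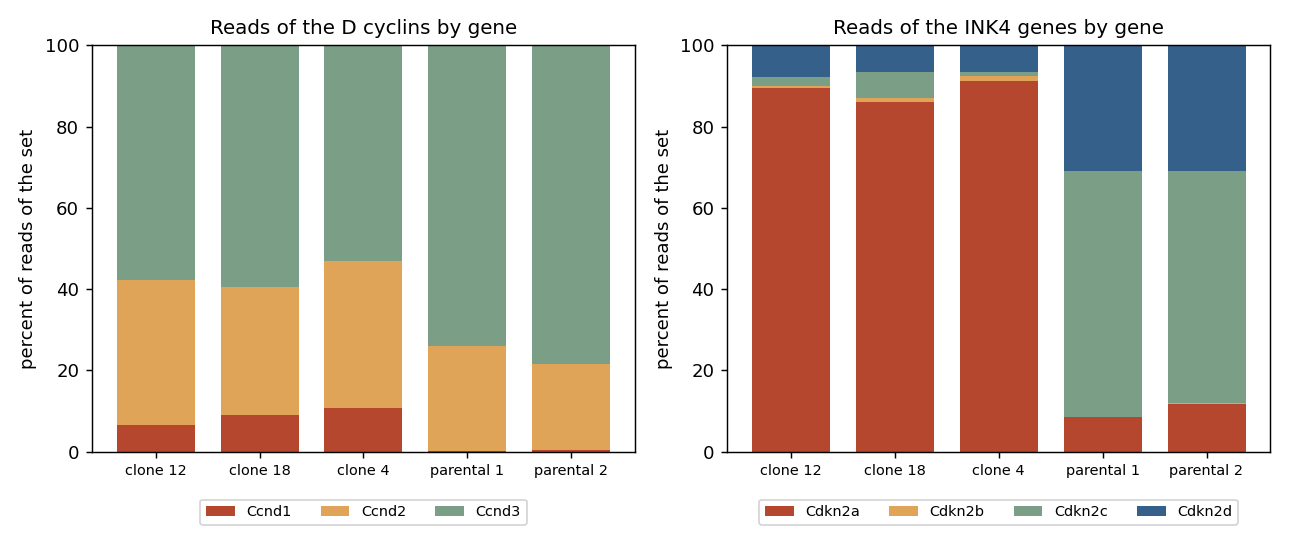
Percent of the reads of the 3 D cyclins (left) and of the 4 INK4 genes (right) that belong to each gene, 1 bar per library. Cdkn2a fills 86.0% to 91.2% of the INK4 bar in the clones and 8.59% to 11.7% in the parental libraries, and Ccnd1 6.62% to 10.8% and 0.150% to 0.312% of the D cyclin bar.

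Cdk4, a partner kinase of the D cyclins, was nearly level. Its values were 14424, 14930 and 14955 in clones 12, 18 and 4 and 15963 and 16159 in the parental libraries. Each clone was below both parental libraries, the closest pair by 1.07 times, and the log2 difference was -0.12 (SE 0.0657). Cdk6, the second partner kinase, had values of 1416, 1293 and 1477 in clones 12, 18 and 4 against 1296 and 1119 in parental cells, so that clone 18 fell below parental replicate 1. Its log2 difference of 0.21 (SE 0.116) and that of Cdk4 differed in sign. The ratio of Cdk4 to Cdk6 reads was 10.2, 11.5 and 10.1 in clones 12, 18 and 4 and 12.3 and 14.4 in the parental libraries.

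The clones were not alike across these genes. Clone 4 had the highest value of the 3 clones in 7 of the 10 genes, namely Cdkn2a, Cdkn2b, the 3 D cyclins, Cdk4 and Cdk6, and the lowest in 2, Cdkn2c and Cdkn1b. Clone 4 is also the library with the fewest reads, and the part of depth in this order was not tested. The share of all tested genes highest in clone 4 was not counted, so the order is not shown to be particular to these genes. Clone 18 was lowest in Cdkn2a, Cdkn2d, Ccnd2, Ccnd3 and Cdk6 and highest in Cdkn2c. Coefficients of variation across clones ran from 1.99% for Cdkn1b and 2.03% for Cdk4 to 42.2% for Ccnd1, 61.6% for Cdkn2b and 78.7% for Cdkn2c.

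In the limma fit over all 13132 tested genes, 2101 genes, or 16.0%, passed an adjusted p under 0.05. Among the 9 tested members 3 passed, Cdkn2a, Ccnd1 and Ccnd2, each higher in the clones, where 7.51% of tested genes were called higher. Every clone lay above both parental libraries in these 3, as in 24.5% of tested genes, and below both in another 3, Cdkn2c, Cdkn1b and Cdk4, as in 25.8%, so that 50.2% of all tested genes had groups that do not overlap. Nothing is read from these counts, because the contrast chose the members and Ccnd1 passed the minimum only through the clones. The set of called members was not fixed. Ccnd2 did not pass without clone 12, without parental replicate 2 or without a filter on low values. Cdkn2c passed without clone 18, without clone 4, with a pseudocount of 5, without robust moderation, and by edgeR and DESeq2, which called 16.8% and 20.4% of genes.

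**Figure D3:**
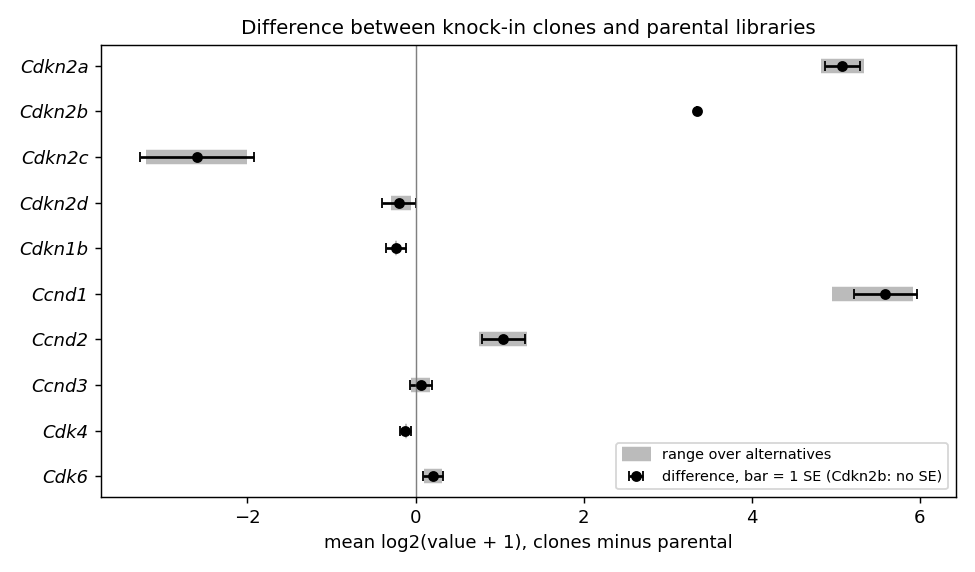
Difference in mean log2(value + 1), clones minus parental, for each gene (points; bars are 1 SE, none for the untested Cdkn2b), with the range over the alternative fits in grey. Cdkn2a and Ccnd1 lie near 5.08 and 5.59, Cdkn2c at -2.60, and Cdk4 and Ccnd3 near 0.

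As a description of size, the difference of Ccnd1 exceeded in magnitude that of 99.6% of tested genes, that of Cdkn2a 99.4%, Cdkn2c 97.2% and Ccnd2 90.4%. For Cdk4 and Ccnd3 the shares were 24.1% and 12.5%. The median tested gene differed by 0.01 between the groups on the log2 scale.

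**Figure D4:**
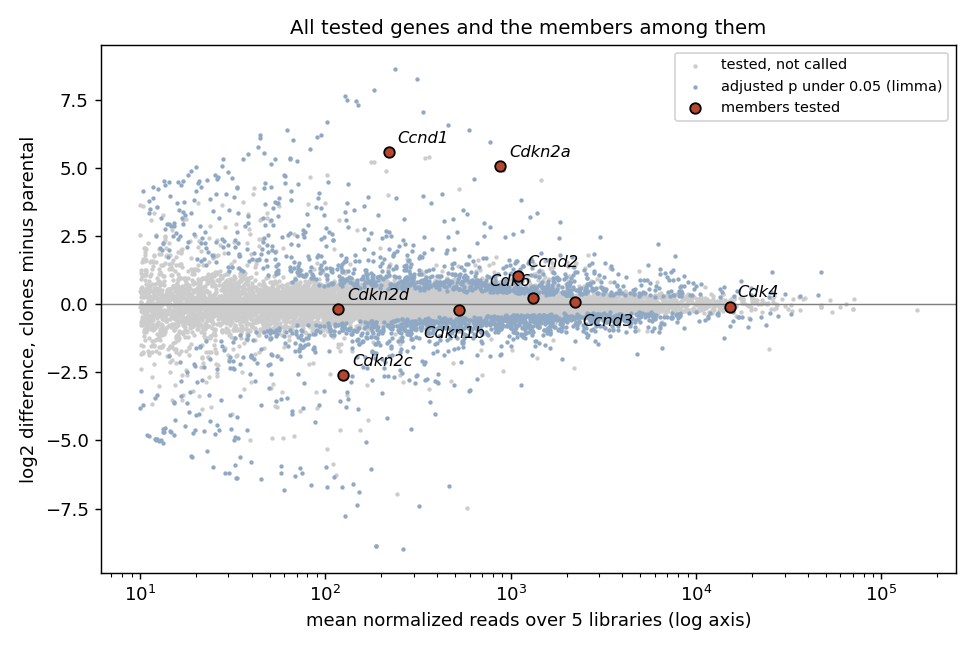
Log2 difference between clones and parental libraries (vertical axis) against mean normalized reads over the 5 libraries (horizontal log axis) for the 13132 tested genes, called genes in blue and the 9 tested members in red. Ccnd1 and Cdkn2a sit far above 0 and Cdkn2c below it, and 5 members lie close to 0.

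Genes with the profile most like that of Cdkn2a were sought by the root mean square difference of centred log2(value + 1) over the 5 libraries. Nearest was Penk, the enkephalin precursor, at 0.22, with 116 normalized reads on average in the clones and 2.15 in the parental libraries. Cd200r3, a CD200 receptor family member found on mast cells and basophils, followed at 0.29 (1485 and 45.1), and Csrp3, a LIM protein of muscle, at 0.30 (84.1 and 1.39). Next came Mfsd2a, a lysophospholipid transporter, and Emx2os, the antisense partner of Emx2, at 0.30 and 0.31, with group means of 28.2 against 0.305 and of 33.6 against 0. For Ccnd1 the nearest were Penk (0.36), Csrp3 (0.39), Rab27b (0.40), a GTPase of granule secretion, Cdkn2a itself (0.41) and Gm11697 (0.45). Cdkn2a and Ccnd1 thus stood among each other's like genes in 1 direction only. A likeness over 5 libraries in 2 groups mostly reflects the group difference. Penk, Csrp3, Mfsd2a, Emx2os, Rab27b and Gm11697 had parental means of at most 2.15 and passed the minimum for testing only through the clones. Their log2 differences depend on the pseudocount: that of Emx2os was 5.02, and 2.88 with a pseudocount of 5.

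The pathway's other genes were taken from 8 lists of inhibitors, RB and E2F factors, CDK2 partners, E2F targets and regulators of the members. Of 111 names, all but the aliases Jmjd3 and Ulf were found, and 104 of the 109 found could be tested. Of these, 5 were higher in the clones and 23 lower, and 76 did not pass (limma, adjusted p under 0.05), beside 7.51% higher and 8.49% lower among all tested genes. The calls fell from 28 to 13 without clone 12 and to 14 without parental replicate 2. Without parental replicate 1 the split was 10 higher and 13 lower, and with no filter on low values 2 higher and 14 lower.

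Of the other CDK inhibitors, Cdkn1a, which encodes p21 and is a target of p53, rose from 369 ± 53.7 to 575 ± 44.0 (log2 0.64, SE 0.152, adjusted p = 0.0275, limma). Its call was lost without any 1 of the clones or without parental replicate 2 (adjusted p = 0.0502 to 0.123, limma). Cdkn3, a phosphatase that acts on CDKs, had 92.5 ± 7.80 against 143 ± 6.24 in parental cells and did not pass (adjusted p = 0.0543, limma; 0.0463, edgeR). Cdkn1c was below the minimum for testing.

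Downstream of the kinases, 4 of 13 RB and E2F genes were lower in the clones and 9 did not pass, with a median log2 difference of -0.40 (0.01 over all tested genes). Rbl1, the RB relative p107, fell from 1578 ± 53.6 to 862 ± 109 (adjusted p = 0.00561, limma). E2f1, an activating E2F factor, was at 608, 788 and 501 in clones 12, 18 and 4 and at 1164 and 1180 in the parental libraries, and E2f5 and E2f7 were lower by log2 values of -1.08 and -1.31. The calls of E2f1, E2f5 and E2f7 were each lost without clone 12, without parental replicate 1 and without parental replicate 2 (adjusted p = 0.0546 to 0.0932, limma), which left 1 lower gene in each of these fits. Without parental replicate 1, E2f4, a repressive E2F factor named after its values were seen, became higher (log2 0.70, adjusted p = 0.0465, limma). Rb1 itself did not pass, at 228 against 297.

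In the CDK2 list 2 of 10 tested genes were lower and 8 did not pass, with a median of -0.31. Ccna2, the cyclin A of S and G2 phase, was at 1875, 1799 and 1422 in clones 12, 18 and 4 and at 4125 and 3723 in the parental libraries (log2 -1.22, SE 0.136, adjusted p = 0.00156, limma). Cdk2 had 820, 875 and 843 in the same order against 1397 and 1260 in parental cells (log2 -0.65, SE 0.109, adjusted p = 0.00853, limma). Both calls held in all 14 alternative fits. The E cyclins, which drive CDK2 at the start of S phase, did not pass, with log2 differences of -0.70 for Ccne1 and -0.57 for Ccne2. Ccne2 did pass by DESeq2 (adjusted p = 0.0380) and without clone 4 (adjusted p = 0.0443, limma).

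Among E2F targets of G1 and S phase 9 of 18 were lower and 9 did not pass, with a median of -0.58. Orc1, of the origin recognition complex, fell from 397 ± 2.92 to 163 ± 38.1, and Tk1, thymidine kinase, from 851 ± 3.26 to 394 ± 76.8 (adjusted p = 0.00791 and 0.00624, limma). Both were kept in all 14 alternative fits. Mcm7, of the replicative helicase, and Pcna, the polymerase clamp, were lower by log2 values of -0.89 and -0.55, the first losing its call without parental replicate 2 (adjusted p = 0.0658) and the second without clone 12 or either parental library (0.0740, 0.0733 and 0.0648, limma). The number of lower genes was 3 with no filter on low values, 3 without clone 12, 5 without parental replicate 2 and 4 without parental replicate 1, and in the fit without parental replicate 1 3 others became higher, Mcm2, Mcm3 and Rrm1. These 3, chosen after their values were seen, differed more between the parental libraries than between the groups: Mcm2 was at 1659 and 634 in parental replicates 1 and 2 and at 1067 to 1354 in the clones.

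Genes that control the stability and assembly of D cyclins, CDK4 and p27 mostly did not pass, with 2 of 16 tested genes lower and a median of 0.03. The 2 were Skp2 and Cks1b, the subunits of the ubiquitin ligase that recognize p27. Skp2 was at 369, 431 and 310 in clones 12, 18 and 4 and at 690 and 697 in the parental libraries (adjusted p = 0.0113, limma), a call lost without parental replicate 2 (0.0505). Cks1b was at 992, 1092 and 925, below 1923 and 1623 (adjusted p = 0.00567, limma). Cul1, the scaffold of that ligase, and Rnf123, a ubiquitin ligase for p27 in G1, did not pass, with log2 differences of -0.26 and 0.32. Rnf123 did pass by DESeq2 (adjusted p = 0.0401) and without clone 4 (adjusted p = 0.0459, limma).

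Among 21 tested genes known to regulate the Ink4-Arf locus, 2 were higher, 3 lower and 16 did not pass, with a median of 0.27. Ezh2, the methyltransferase of Polycomb complex PRC2, was at 3351, 2945 and 2609 in clones 12, 18 and 4 and at 5708 and 6342 in the parental libraries (log2 -1.03, SE 0.120, adjusted p = 0.00187, limma). Suz12, another PRC2 subunit, fell from 3014 ± 110 to 2116 ± 113 (adjusted p = 0.0111, limma), and Eed, a PRC2 subunit as well, did not pass (379 against 328). Ets1, a transcription factor that can activate p16INK4a, had 88.6, 152 and 75.9 in clones 12, 18 and 4, 0 in parental replicate 1 and 5.50 in parental replicate 2 (log2 5.32, SE 0.788, adjusted p = 0.00730, limma). Its log2 difference was 3.97 without parental replicate 1 and 6.67 without parental replicate 2, and 3.87 with a pseudocount of 5. With a mean of 2.75 in the parental libraries, Ets1 passed the minimum for testing only through the clones, as Ccnd1 did. Its calls, in the main fit and in the alternatives, carry this limit. Ets2, a related factor named after its values were seen, was the remaining lower gene, at 152 ± 1.79 in clones and 241 ± 0.372 in parental cells (log2 -0.66, adjusted p = 0.0250, limma). The calls of Ezh2, Suz12 and Ets1 were kept in all 14 alternative fits. Id1, which opposes ETS and bHLH factors, rose from 49.5 ± 2.57 to 108 ± 26.9 (adjusted p = 0.0237, limma). That call was lost when clone 12 or either parental library was left out (0.0742, 0.0687 and 0.114, limma). Bmi1, the PRC1 subunit best known for silencing this locus, did not pass, with means of 1581 in clones and 1437 in parental cells.

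On the ARF and p53 axis, 1 of 10 tested genes was higher, 1 lower and 8 did not pass, with a median of -0.02. The lower gene was Npm1 (log2 -0.82, SE 0.0673, adjusted p = 0.000533, limma). Huwe1, a ubiquitin ligase that ARF inhibits, was 1.35-fold higher (adjusted p = 0.0145), a call lost without clone 12 or either parental library (0.0657, 0.0542 and 0.0724, limma). Trp53 and Mdm2 did not pass, with clone means of 5443 and 1787 and parental means of 6004 and 1582. Trip12, a ubiquitin ligase for ARF, did not pass either (log2 0.46), except without parental replicate 1 (adjusted p = 0.0231, limma).

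Of 15 genes that link KIT to the D cyclins, 1 was higher, 2 lower and 12 did not pass, with a median of 0.11. Ctnnb1, which encodes beta-catenin, was at 7381, 7003 and 7115 in clones 12, 18 and 4 and at 9731 and 9880 in the parental libraries (adjusted p = 0.00676, limma). Mapk3 (ERK1) fell from 1805 ± 62.6 to 1242 ± 178, and Foxo3, a factor held inactive by AKT, rose from 1067 ± 0.827 to 1381 ± 32.7 (adjusted p = 0.0342 and 0.0395, limma). The call of Foxo3 was lost without any 1 of the 5 libraries (adjusted p = 0.0546 to 0.138), and that of Mapk3 without any 1 except clone 4 (0.0550 to 0.118, limma). Myc, an inducer of Ccnd2 and Cdk4, had 9976 against 10128 and did not pass.

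**Figure D5:**
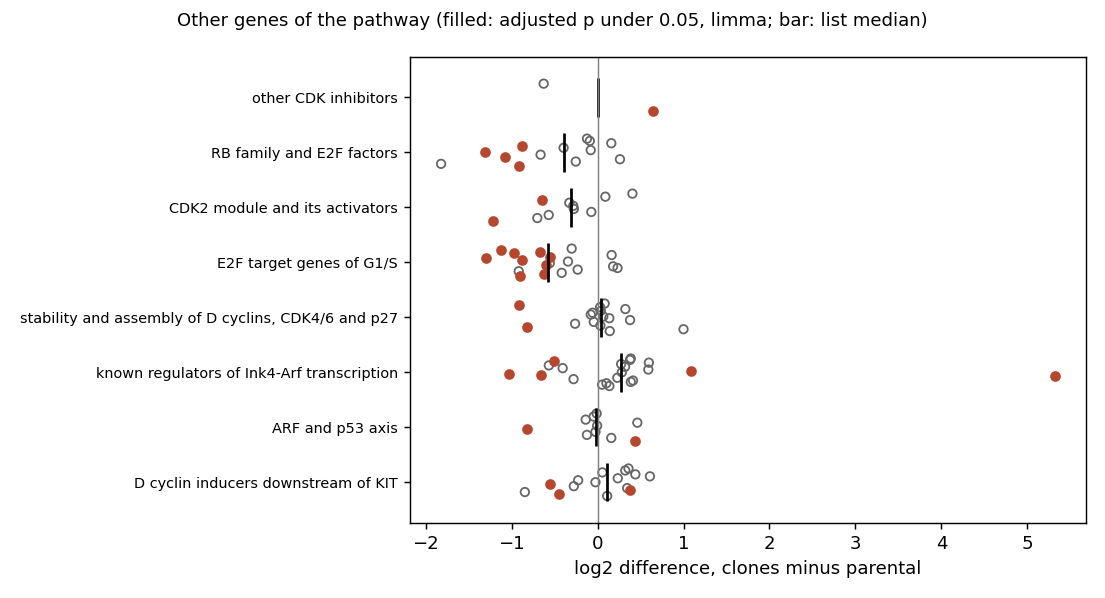
Log2 difference between clones and parental libraries (horizontal axis) for the tested genes of the 8 pathway lists; filled points have an adjusted p under 0.05 and the black bar is the list median. Medians run from -0.58 for the E2F targets to 0.27 for the regulators of Ink4-Arf, and the point at 5.32 is Ets1.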

How the data were processed

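Libraries of 5 mouse RNA samples were built with an NEBNext Ultra II kit, per the labels' protocols. STAR 2.6.1, RSEM and DESeq2 appear, per the submitters' processing notes, without the step each served. The deposited signal is, as the values show, reads per Ensembl gene that the authors divided by a size factor per library: 100% of values above 0 were whole multiples of the library's smallest value (tolerance 0.01), so reads were recovered. The sources used here give neither strand use nor annotation release.

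Groups came from titles. No pair of replicates matched within counting error (chi-square per degree of freedom 6.34 to 11.9 for clone pairs and 26.9 for the parental pair) and none was merged, which does not show that they are independent cultures. limma 3.58.1 (R 4.3.3, trend, robust) was fitted to log2(value + 1) for genes with a mean of at least 10. Benjamini-Hochberg adjustment was over all 13132. A run on simulated reads gave every gene the same dispersion, unlike these data, so it does not bear on the calls reported. Fold changes of genes with few reads depend on the pseudocount. Alternatives included edgeR 4.0.16 and DESeq2 1.42.0 on recovered reads. The SE is limma's. Intervals and floors of 3 reads cover counting error only.

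The members and lists were chosen with earlier results of these data known. Named were the 10 members, up to 4 genes of each list with the smallest p (1 of them is not reported here), the 5 genes most like Cdkn2a and Ccnd1, Npm1 and Kit. Hoxb8, the third check of the labels, did not pass (5492 ± 1283 against 6406 ± 461, adjusted p = 0.438, limma). Chosen after their values were seen were Ccnd3-ps, Rb1, Eed, Bmi1, Mdm2, Myc, Cdkn1c and the genes so marked. Chromosomal neighbours of the members, the human libraries and sequences were not analysed here. Of the other marker lists, summed erythroid markers were at 39.6 to 68.9 in the clones and 3.11 to 8.24 in the parental libraries. Monocyte markers were at 735 to 1210 and 483 to 543, and B cell markers at 731 to 1001 and 1308 to 1355. T and NK cell markers were at 65.6 to 170 and 129 to 130, and stromal and endothelial markers at 7461 to 9160 and 3317 to 3511. Only 1 of 7 erythroid, 2 of 5 B cell and 1 of 6 T and NK cell markers had enough reads to be tested. The same held for 1 of 6 stromal and endothelial markers, so that sum comes almost wholly from 1 gene. Pdgfra and Cdh5 of that list had no reads in any library.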

Additional observations from a re-analysis of the deposited data

How the results depend on the processing

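Of the 14 alternative fits, 5 leave out a library. The number of genes called, 2101 (46.9% of them higher), ranged from 981 to 2117 when a library was left out, with 1015 without clone 12 and 981 without parental replicate 2, and the share of higher calls rose to 68.5% and 59.6% without parental replicate 1 or 2. The 28 calls of the pathway lists became 16 without a filter on low values, where 20236 genes were tested and Cdkn1a, E2f1, E2f7, Pcna, Id1, Mapk3 and Foxo3 were among those no longer called, and 13 to 29 without a library. Without 1 of the clones, 2 to 4 of the members were called, and nothing is read from this count because the contrast chose the members. The log2 difference ranged from 4.83 to 5.33 for Cdkn2a, 4.96 to 5.92 for Ccnd1 (lowest with a pseudocount of 5), 0.75 to 1.33 for Ccnd2 and -3.20 to -2.01 for Cdkn2c. No alternative turned the direction of a named gene that had passed the test. Of 515 values of named genes outside the members under the alternatives, 467 kept their side of the threshold, 40 lost the call and 8 gained it. The tally includes the genes named for a profile like that of Cdkn2a or Ccnd1. These kept their call in every alternative that tested them. Because the group difference itself chose them, their share of the tally says nothing about stability. The cause of the changes in calls was not tested. Without a parental library, the other one is assumed to vary like the clones. No paired analysis was possible because the clones and the parental libraries share no replicate number. With 3 clones against 2 libraries, small differences such as those of Cdkn1b, Cdk4 and Cdk6 may go undetected, and in parental replicate 1 a value under 4.66 is worth fewer than 3 reads.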

Other observations

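The parental libraries differed from each other in further genes of the lists, chosen after their values were seen. Cdc37, the chaperone that delivers CDK4 to HSP90, was at 1344 and 373 in parental replicates 1 and 2, with 1304, 1416 and 1539 in clones 12, 18 and 4. E2f4 was at 469 and 255, with 377 to 447 in the clones. Rrm1 and Mcm3 were at 1942 and 639 and at 1813 and 585, with every clone between the 2 parental values. Among the members, the parental libraries differed by 1.49 times in Ccnd2 and by 1.70 times in Ccnd1, and by only 1.01 to 1.05 times in Cdkn2c, Cdkn2d, Cdkn1b and Cdk4.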
